A study of Mus musculus with 11 samples.

Results

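The epicardium is the sheet of mesothelial cells that covers the heart. The genes described here are 10 genes known from that sheet and from mesothelium in general, chosen by name: Wt1, Tbx18, Tcf21, Bnc1, Aldh1a2, Upk3b, Upk1b, Msln, Krt8 and Krt19. All 10 were found among the 15274 genes of the deposited table, and all 10 were among the 14751 genes that reached a normalised count of 10 in at least 2 libraries. They were measured by RNA sequencing in 11 heart libraries from 6 mice aged 8 weeks, all carrying a day 7 mark in their titles. From each of 3 C57BL/6J mice (B6) came 1 library of an uninjured heart region and 1 of an injured heart region. From C3H/HeJ mice (C3H) came 3 libraries of uninjured regions and 2 of injured regions, and the 2 injured regions belonged to hearts that also gave an uninjured one. The labels name neither the kind of injury nor any genetic modification. Each library is a piece of 1 heart, so the replicates are animals, and the 2 regions of a heart share an animal.

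In the adult heart epicardial cells are few and quiet. After damage they are known to switch fetal genes back on, to make retinoic acid and growth factors, and some lose their epithelial form and move inward as mesenchymal cells. Wt1, Tbx18 and Tcf21 are transcription factors of the fetal epicardium. Tcf21 also marks resident cardiac fibroblasts, which descend from it. Bnc1 is a zinc finger transcription factor of mesothelium and other epithelia. Aldh1a2 makes retinoic acid from retinal. Upk3b and Upk1b are uroplakins, membrane proteins of the mesothelial and bladder surface, and Msln is mesothelin, a surface protein of mesothelium. Krt8 and Krt19 are keratins of simple epithelia, mesothelium included. In whole pieces of tissue, fewer cells of a type and less RNA per cell cannot be told apart.

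The depth was 9699985 to 22138459 reads in genes. The heart label fitted the marker genes in all 11 libraries: the summed normalised count of 11 cardiomyocyte genes was 1908633 to 2335442 in B6 uninjured, 1146706 to 1463836 in B6 injured, 1957074 to 2462552 in C3H uninjured and 650356 to 747968 in C3H injured regions. Myh6, the alpha myosin heavy chain, was the most abundant of them. Macrophage markers, led by Lyz2, summed to 27041 to 33271 in B6 injured and 65777 to 115552 in C3H injured regions, against 9335 to 22690 in the uninjured regions of both strains. Fibroblast markers, led by Col3a1, summed to 354708 to 367704 in B6 injured and 405496 to 540816 in C3H injured regions, against 176335 to 336609 and 69869 to 243226 in the uninjured regions. B6 uninjured region 1 had the highest fibroblast sum of its group, 336609 against 176335 and 198923. Endothelial sums, led by Cdh5, lay between 11744 and 21833, and mural sums, led by Acta2, between 6022 and 16634. Of 8 lung epithelial markers, 3 were in the table (Sftpb, Scgb1a1 and Epcam) and summed to 0 to 4.89 in B6 and 23.1 to 54.4 in C3H. Of 6 adipocyte markers only Cfd was in the table, at 0 to 66.9. Of 4 atrial markers 3 were in the table and summed to 3015 to 70038, nearly all of it from Nppa, which alone ran from 2893 to 69974. Xist, expressed from the inactive X of females, stood at 3.14 to 12.2 in B6 and 1840 to 8478 in C3H, and the Y-linked Ddx3y at 1429 to 2221 in B6 and 0.888 to 3.46 in C3H, so strain and sex cannot be told apart. The part of these markers in any result below was not tested.

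In the fit without regard to the animal, no epicardial or mesothelial gene passed the adjusted threshold of 0.05 (limma) in any of 5 comparisons: injury in B6, injury in C3H, the difference between those effects, and strain in uninjured and in injured regions. With the regions paired by animal as a fixed block, 1 of the 10 was called: Aldh1a2 rose with injury in C3H by 1.17 (SE 0.23, adjusted p = 0.00287 by limma). The same fit called 5151 of all 14751 genes for injury in C3H. Aldh1a2 was higher in the injured region of all 5 hearts that gave both regions. Wt1, Tbx18, Tcf21 and Upk3b were higher in the injured region in 3 of 3 B6 hearts and in at most 1 of 2 C3H hearts. The surface genes, the keratins and Bnc1 varied widely between the 3 uninjured B6 regions, and Msln ran from 26.0 to 771 there. The plot of all values shows these differences between genes.

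**Figure D1:**
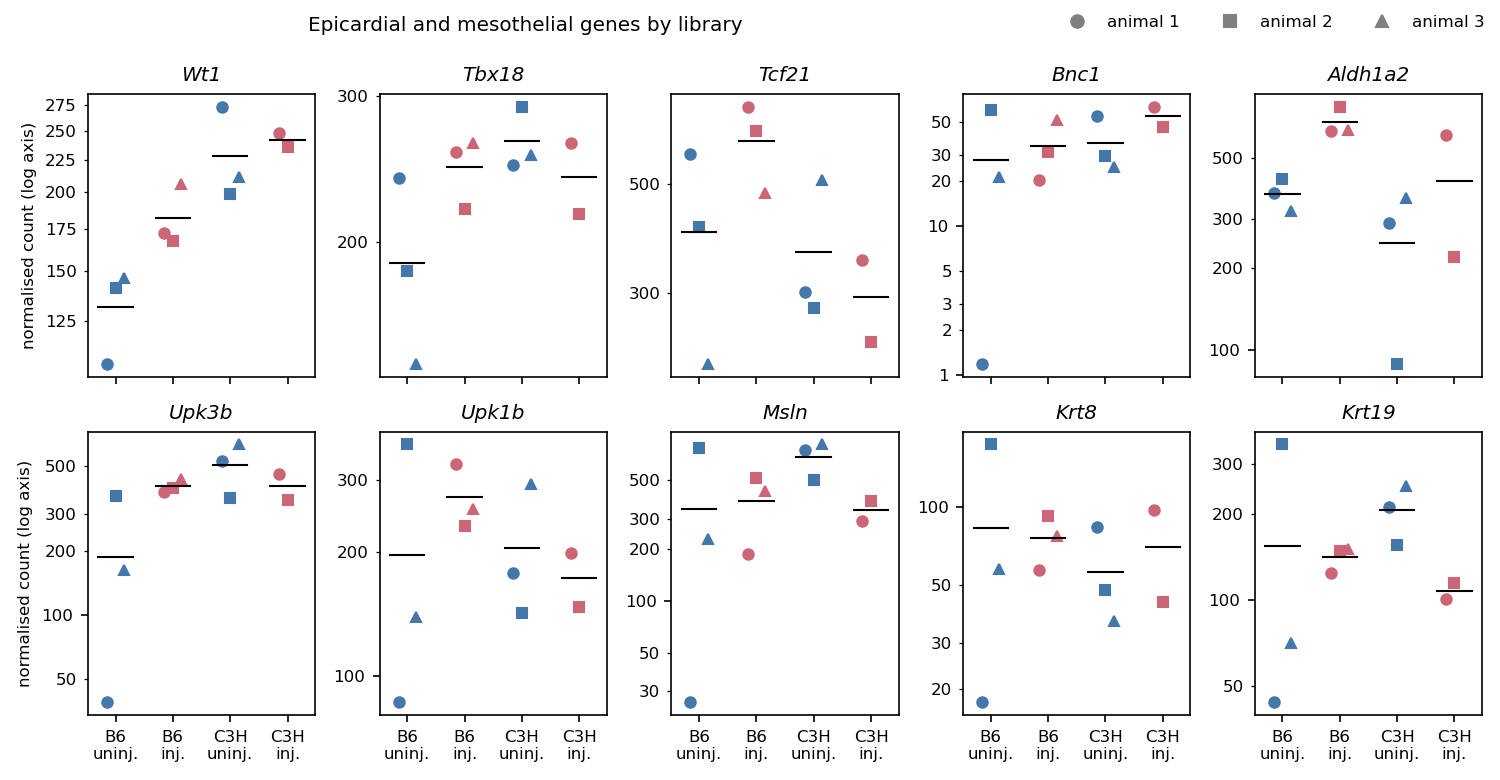
Normalised count of each gene in each of the 11 libraries, on a log axis that differs between panels; blue points are uninjured and red points injured regions, the symbol gives the animal's number within its strain, and black lines are group means. Aldh1a2 lies at 629 to 770 in the 3 injured B6 regions, whereas Msln spans 26.0 to 771 in the uninjured B6 regions.

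For 6 of the 10 genes (Upk3b, Bnc1, Aldh1a2, Tbx18, Tcf21 and Krt8) RefSeq's promoter table, build GRCm38.p6, held an entry of 300 bases, from 250 before the annotated start to 50 after it. The other 4 are Wt1, Upk1b, Msln and Krt19. Because no gene passed the threshold, the rule for choosing promoters named none, and the 4 shown were picked after the values were seen: Aldh1a2 for its like direction in every heart, Upk3b and Krt8 as genes that varied together, and Tcf21 as one that did not vary with them. The 250 bases before the start are given 5′ to 3′ on the gene's strand, with capitals where a searched motif matches.
Aldh1a2, chr9:71215539-71215788, plus strand: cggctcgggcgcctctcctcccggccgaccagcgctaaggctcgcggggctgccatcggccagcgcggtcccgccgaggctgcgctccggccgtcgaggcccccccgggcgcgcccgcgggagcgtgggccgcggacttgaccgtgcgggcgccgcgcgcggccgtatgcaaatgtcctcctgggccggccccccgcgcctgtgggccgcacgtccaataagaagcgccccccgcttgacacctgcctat
Upk3b, chr5:136038246-136038495, plus strand: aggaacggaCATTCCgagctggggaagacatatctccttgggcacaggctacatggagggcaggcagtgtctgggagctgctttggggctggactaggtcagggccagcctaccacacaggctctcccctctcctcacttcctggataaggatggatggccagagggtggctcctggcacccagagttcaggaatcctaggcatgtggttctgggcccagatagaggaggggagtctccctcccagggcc
Krt8, chr15:102004343-102004592, minus strand: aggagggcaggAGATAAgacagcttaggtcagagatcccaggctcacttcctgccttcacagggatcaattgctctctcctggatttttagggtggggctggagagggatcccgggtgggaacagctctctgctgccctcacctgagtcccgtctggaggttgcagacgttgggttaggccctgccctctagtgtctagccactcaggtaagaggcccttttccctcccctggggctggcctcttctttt
Tcf21, chr10:22820144-22820393, minus strand: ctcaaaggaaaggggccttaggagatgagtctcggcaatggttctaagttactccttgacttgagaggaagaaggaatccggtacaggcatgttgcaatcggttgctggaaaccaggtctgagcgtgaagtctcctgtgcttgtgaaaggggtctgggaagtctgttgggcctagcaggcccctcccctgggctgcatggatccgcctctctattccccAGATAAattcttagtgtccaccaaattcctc

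Motifs were searched on both strands of all 300 bases: GGAATG for TEAD factors, CAGCTG as an E-box for bHLH factors such as Tcf21 itself, AGATAA for GATA factors and AGGTGTGA for T-box factors such as Tbx18. The Upk3b promoter held a TEAD match on the opposite strand whose first base lies at -241 from the start. Krt8 held a GATA match at -239 and an E-box at 41, in the bases past those printed, and Tcf21 held a GATA match at -31. None of the 4 motifs was found in the windows of Bnc1, Aldh1a2 and Tbx18, and the T-box motif in none of the 6. Of 32851 promoters in the table, 14.7% held the TEAD letters, 16.3% the E-box, 11.2% the GATA letters and 1.28% the T-box. G and C made up 77.6% of the 250 bases of Aldh1a2 and 83.6% of those of Bnc1, against 52.4% in Tcf21, 54.0% in Tbx18, 58.0% in Krt8 and 60.8% in Upk3b.

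Levels of different genes were compared per kilobase of annotated exon. By the median over the 11 libraries the order was Msln (199 normalised counts per kb), Tcf21 (174), Aldh1a2 (165), Upk3b (108), Upk1b (105), Krt19 (94.2), Wt1 (59.1), Tbx18 (52.9), Krt8 (29.5) and Bnc1 (6.76). The ranges of all neighbours in this order overlapped. Msln was the highest gene per kb in 5 libraries, Aldh1a2 in 4 and Tcf21 in 2. Bnc1 was the lowest in 11 of 11. In B6 uninjured region 1 a single Bnc1 read was counted, so its value there says little beyond a low level. Bnc1, Aldh1a2, Tbx18, Tcf21 and Krt8 each overlap 1 gene annotated on the opposite strand that is not in the table, and no source used here says whether reads were counted by strand.

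Among the transcription factors, Wt1 had the smallest spread within groups. Its normalised counts were 106, 141 and 146 in B6 uninjured, 172, 167 and 206 in B6 injured, 273, 199 and 211 in C3H uninjured, and 248 and 236 in C3H injured regions. The injured B6 regions all lay above the uninjured ones, and both C3H groups lay above uninjured B6 without overlap. The group means were 131 ± 21.6 (SD, n = 3), 182 ± 21.3 (SD, n = 3), 228 ± 39.8 (SD, n = 3) and 242 ± 8.60 (SD, n = 2), in the same order. On the log2(normalised count + 1) scale the injured regions differed from the uninjured by 0.48 (SE 0.23) in B6, with an adjusted p of 0.386 by limma. In C3H the difference was 0.10, with a 95% interval from -0.46 to 0.66 and an adjusted p of 0.792 by limma. Uninjured C3H exceeded uninjured B6 by 0.79 (SE 0.23, adjusted p = 0.0964 by limma), a difference that DESeq2 called, with an adjusted p of 0.024. DESeq2 called 916 of all 14751 genes in that comparison.

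Tbx18 read 239, 185 and 143 in B6 uninjured, 257, 219 and 263 in B6 injured, 248, 291 and 255 in C3H uninjured, and 263 and 216 in C3H injured regions. All 3 uninjured C3H values lay above the 3 uninjured B6 values, by 0.51 on the log2 scale (SE 0.23, adjusted p = 0.303 by limma). The injured regions overlapped the uninjured in both strains, at 0.41 (SE 0.23) in B6 and -0.15 (SE 0.26) in C3H.

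Tcf21 read 574, 409 and 214 in B6 uninjured and 717, 639 and 479 in B6 injured regions. In C3H it read 301, 280 and 509 in uninjured and 349 and 238 in injured regions. Each B6 heart had more Tcf21 in its injured region, yet the 2 groups overlapped, and the difference was 0.71 (SE 0.36, adjusted p = 0.403 by limma). Both injured C3H regions lay below all 3 injured B6 regions, by 1.06 log2 units in the fit, an estimate of -1.06 with a 95% interval from -1.93 to -0.19 and an adjusted p of 0.130 by limma. Fitted on the 2 injured groups alone, that difference passed, with an adjusted p of 0.0398 by limma. That fit called 1562 of all 14751 genes.

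Bnc1 read 1.18, 60.1 and 21.2 in B6 uninjured, 20.4, 31.4 and 51.6 in B6 injured, 54.5, 29.3 and 24.9 in C3H uninjured, and 63.1 and 45.9 in C3H injured regions. These values come from 1 to 73 reads. All 4 groups overlapped, and the 95% interval of the injury difference was -0.80 to 3.22 in B6 and -1.61 to 2.89 in C3H.

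Aldh1a2, the retinoic acid enzyme, read 374, 419 and 321 in B6 uninjured and 629, 770 and 634 in B6 injured regions, with means of 371 ± 49.3 (SD, n = 3) and 678 ± 79.9 (SD, n = 3). In C3H it read 291, 89.0 and 358 in uninjured and 607 and 218 in injured regions, with means of 246 ± 140.0 (SD, n = 3) and 413 ± 275 (SD, n = 2). The B6 groups did not overlap, while the C3H groups did, with C3H mouse 2 low in both regions. Heart by heart the injured region was higher by 0.75, 0.88 and 0.98 log2 units in B6 and by 1.06 and 1.29 in C3H. Without regard to the animal, the difference was 0.87 (SE 0.47, adjusted p = 0.427 by limma) in B6 and 0.79 (SE 0.53, adjusted p = 0.274 by limma) in C3H.

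With the animal as a fixed block, which leaves C3H mouse 3 without a partner region and so without weight, the difference of Aldh1a2 in C3H was 1.17 and passed, as given above. It was the only one of the 10 genes called with a block. With the animal as a random block the C3H difference was 0.94 (adjusted p = 0.0653 by limma). The B6 difference stayed at 0.87 under both blocks, with adjusted p = 0.1002 for the fixed and 0.142 for the random block by limma. The C3H estimate without a block depended on single libraries: it was 0.05 without C3H injured 1, 1.52 without C3H injured 2 and 0.17 without C3H uninjured 2. The plot of differences by heart shows how close the 5 animals lie for Aldh1a2 compared with the other genes.

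**Figure D2:**
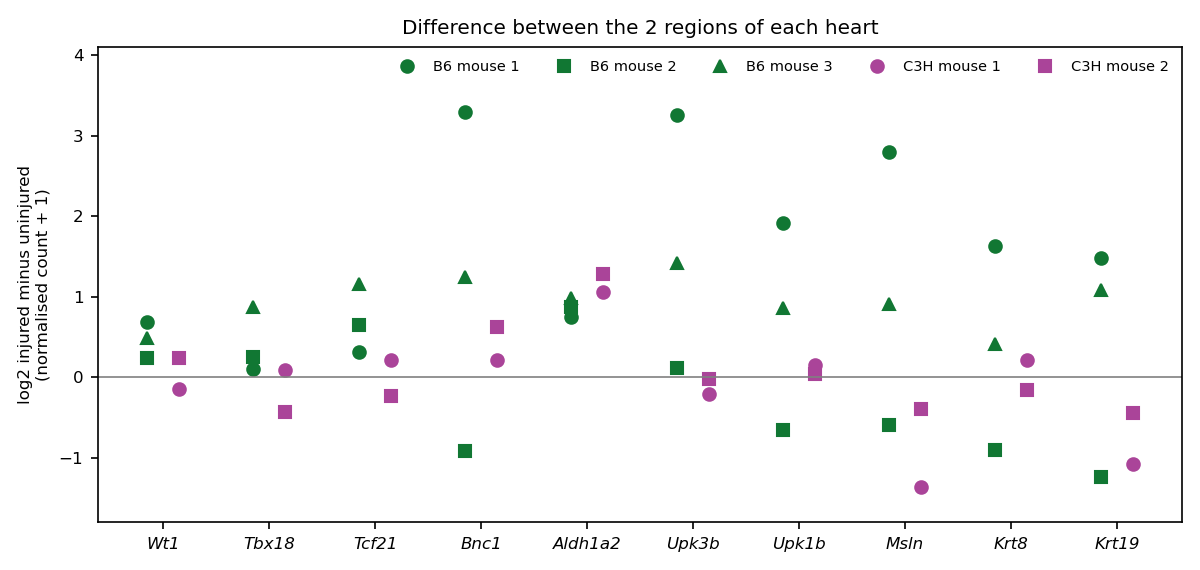
Log2 difference between the injured and the uninjured region of the same heart for each gene, from normalised counts with 1 added; green symbols are the 3 B6 hearts and purple symbols the 2 C3H hearts with both regions. For Aldh1a2 all 5 points lie between 0.75 and 1.29, and for Bnc1 they run from -0.92 to 3.29.

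The mesothelial surface genes had wide values in uninjured B6 regions. Upk3b read 39.0, 363 and 163 in B6 uninjured, 380, 394 and 438 in B6 injured, 532, 354 and 634 in C3H uninjured, and 461 and 348 in C3H injured regions. The 3 injured B6 values were close together and above all uninjured B6 values. The C3H values ran from 348 to 634 over both groups. The means were 188 ± 163 (SD, n = 3) in uninjured and 404 ± 30.4 (SD, n = 3) in injured B6 regions, and 507 ± 142 (SD, n = 3) and 404 ± 80.1 (SD, n = 2) in C3H. The B6 difference was 1.60, with a 95% interval from 0.33 to 2.87 and an adjusted p of 0.364 by limma, and by heart it was 3.25, 0.12 and 1.43. Without B6 uninjured 1 it was 0.73, and without B6 uninjured 2 it was 2.32. With the animal as a block and all libraries kept, the B6 difference stayed at 1.60. Its adjusted p was then 0.107 for the fixed and 0.104 for the random block by limma. In C3H the difference was -0.30, with a 95% interval from -1.72 to 1.13.

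Upk1b read 86.4, 365 and 139 in B6 uninjured, 328, 232 and 254 in B6 injured, 178, 142 and 292 in C3H uninjured, and 199 and 147 in C3H injured regions. The injured groups did not overlap, C3H being the lower (-0.65, SE 0.50, adjusted p = 0.463 by limma), and the injured and uninjured regions overlapped in both strains.

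Msln read 26.0, 771 and 230 in B6 uninjured, 188, 514 and 434 in B6 injured, 746, 501 and 804 in C3H uninjured, and 290 and 380 in C3H injured regions. Both injured C3H regions lay below the 3 uninjured ones, with means of 335 ± 64.0 (SD, n = 2) against 684 ± 161 (SD, n = 3). With the spread shared by all 4 groups the fit gave -1.01 (SE 0.98, adjusted p = 0.459 by limma). Fitted on the 2 C3H groups alone, the same difference of -1.01 passed, with an adjusted p of 0.0408 by limma. That fit called 3748 of all 14751 genes. In B6 the fitted difference was 1.04 (SE 0.88), but -0.28 without B6 uninjured 1 and 2.14 without B6 uninjured 2.

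Both keratins followed a similar pattern in B6. Krt8 read 17.7, 174 and 57.7 in B6 uninjured, 57.1, 92.7 and 77.4 in B6 injured, 84.2, 48.2 and 36.4 in C3H uninjured, and 97.7 and 43.1 in C3H injured regions, and no 2 groups were separated. Krt19 read 43.8, 350 and 70.7 in B6 uninjured, 124, 148 and 151 in B6 injured, 212, 156 and 251 in C3H uninjured, and 100 and 114 in C3H injured regions. Both injured C3H values of Krt19 were below all 3 uninjured C3H values and all 3 injured B6 values. The C3H difference was -0.91 (SE 0.64, adjusted p = 0.297 by limma). It passed, at the same size, when B6 uninjured 2 was left out of the shared spread (adjusted p = 0.0461 by limma). That fit called 4596 of all 14751 genes for injury in C3H.

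Injury in B6 was then read over the 10 genes together. Of all genes tested 0.0136% were called, which is 2 genes, and of the 10 epicardial and mesothelial genes 0. An unadjusted p under 0.05 by limma was seen for 1 of the 10 (Upk3b), against 1979 of all 14751 genes. With the animal as a fixed block it was seen for 4 (Aldh1a2, Upk3b, Tcf21 and Msln), against 3520 of all genes. With a random block it was seen for 4 (Upk3b, Tcf21, Aldh1a2 and Wt1), against 3638 of all genes. edgeR called 0 of the 10. DESeq2 gave none of the 10 an adjusted p here, because its independent filtering kept only 1023 genes, and without that filtering it called 0 of the 10 and 45 of all genes. All 10 fitted differences were above 0, with a median of 0.71 against 0.01 over all genes. In edgeR and DESeq2 Krt8 and Krt19 were just under 0, and without B6 uninjured 1 Bnc1, Msln, Krt8 and Krt19 were negative. The injured values lay above the uninjured without overlap for 3 genes (Wt1, Aldh1a2 and Upk3b), against 9.83% of all genes, and below for 0, against 7.69%. B6 mouse 2 went against the other hearts in 5 genes: Bnc1, Upk1b, Msln, Krt8 and Krt19 were lower in its injured region, with log2 differences of -0.59 to -1.23.

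Injury in C3H called 30.7% of all genes, yet 0 of the 10, and none of the 10 had an unadjusted p under 0.05 by limma, where 6241 of all 14751 genes did. With the animal as a fixed or a random block 1 (Aldh1a2) had one, against 6676 and 7430 of all genes. edgeR and DESeq2 called 0 of the 10 as well. The median difference of the 10 was -0.17 against 0.01 over all genes, and 4 were above 0 (Wt1, Bnc1, Aldh1a2 and Krt8). With quantile normalisation, which moved the median of all genes to -0.11, Wt1 and Krt8 were below 0. No gene of the 10 was higher in both injured regions without overlap, where 29.6% of all genes were, and 2 (Msln and Krt19) were lower without overlap, where 29.7% of all genes were. With 2 injured libraries the 95% intervals of Bnc1, Upk3b, Msln and Krt8 reached beyond 1 log2 unit in both directions.

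The difference between the strains' injury effects (C3H minus B6) was below 0 for all 10 genes, with a median of -0.73 against -0.02 over all genes. Aldh1a2 turned positive with either block, and Bnc1 and Krt8 did in edgeR and DESeq2. None passed, where 1.57% of all genes did, and none had an unadjusted p under 0.05 by limma, where 2082 of all 14751 genes did. With the animal as a fixed block 2 of the 10 (Msln and Upk3b) had one, against 2703 of all genes. With a random block 1 (Upk3b) did, against 3241 of all genes. edgeR and DESeq2 called 0. Upk3b, which had the smallest p without a block, differed by -1.896 in that fit (SE 0.88, adjusted p = 0.358 by limma). Msln differed by -2.06 there, with a larger error (SE 1.32, adjusted p = 0.520 by limma). Without B6 uninjured 2 the difference of Krt19 passed, at -2.23 (adjusted p = 0.043 by limma), in a fit that called 154 of all 14751 genes. Without B6 uninjured 1 the difference was -0.75 for Krt19 and -0.73 for Msln, and Bnc1 (0.79) and Krt8 (0.72) were above 0.

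In uninjured regions, C3H against B6 gave calls for 3.1% of all genes and for 0 of the 10. The 4 genes with an unadjusted p under 0.05 by limma were Wt1, Upk3b, Msln and Tbx18, all higher in C3H, and 2408 of all 14751 genes had such a p. With the animal as a random block Tbx18 was not among them. Upk3b differed by 1.88 (SE 0.58, adjusted p = 0.121 by limma) and Msln by 1.99 (SE 0.88, adjusted p = 0.287 by limma). Wt1 and Tbx18 were higher in C3H without overlap, where 7.63% of all genes were, and 0 of the 10 were lower, where 9.27% were. edgeR called 0 of the 10 and DESeq2 called 1, Wt1, and 916 of all 14751 genes. Without B6 uninjured 2, Upk3b (2.61, adjusted p = 0.0231 by limma) and Krt19 (1.84, adjusted p = 0.0146 by limma) were called as higher in C3H. That fit called 235 of all 14751 genes. Without B6 uninjured 1 the differences shrank to 1.02 for Upk3b, 0.67 for Msln and 0.36 for Krt19. Bnc1 (-0.07) and Upk1b (-0.21) then fell below 0, and Tcf21 (0.24) rose above it. With all libraries the median of the 10 was 0.65 against -0.01 over all genes, and 7 were above 0, where 7299 of all 14751 genes were.

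In injured regions, 7.06% of all genes and 0 of the 10 were called between the strains, and edgeR and DESeq2 likewise called 0. Tcf21 alone had an unadjusted p under 0.05 by limma, where 3515 of all 14751 genes did. Wt1 was higher in C3H without overlap, against 24.9% of all genes, and 4 genes were lower without overlap (Tcf21, Aldh1a2, Upk1b and Krt19), against 24.2%. Upk3b means were 404 in both strains, and the 95% interval of the difference was -1.43 to 1.41. The plot of intervals shows all 10 genes in the 4 comparisons of groups.

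**Figure D3:**
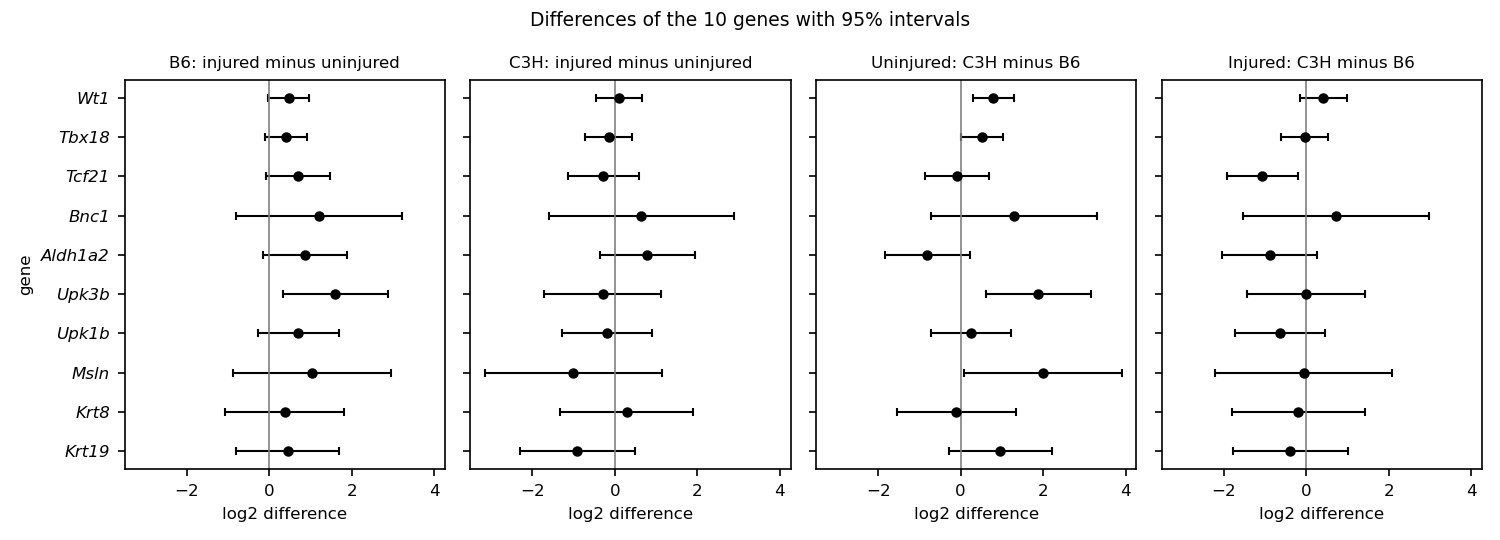
Fitted log2 difference (point) and 95% interval (bar) of each gene in 4 comparisons, from limma on log2 normalised counts with 1 added. Bars for Bnc1 and Msln span several log2 units, and those for Wt1 and Tbx18 about 1 unit.

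The spread within groups divided the 10 genes. Across the 3 uninjured B6 regions the log2 range was 4.84 for Msln, 4.81 for Bnc1, 3.22 for Krt8, 3.18 for Upk3b, 2.97 for Krt19 and 2.07 for Upk1b. For Wt1 it was 0.45, for Aldh1a2 0.39, for Tbx18 0.74 and for Tcf21 1.42, and the median over all genes was 0.75. The range of Msln exceeded that of 99.8% of all genes. In each of the 6 wide genes B6 uninjured 1 was the lowest and B6 uninjured 2 the highest. The lowest values went with the highest fibroblast marker sum of that group. The highest went with the lowest depth, 9699985 reads in B6 uninjured 2 against 15132535 and 14617739 in B6 uninjured 1 and 3. The part of the tissue make-up and of depth was not tested.

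The 6 wide genes varied together. Over the 11 libraries, after each group's mean was taken away, the 15 pairs among Bnc1, Upk3b, Upk1b, Msln, Krt8 and Krt19 had Pearson r from 0.68 to 0.94 (median 0.88). Their r with Tbx18 and Tcf21 ran from -0.62 to 0.20 (median -0.31), and Tbx18 and Tcf21 had r = 0.62 with each other. Wt1 had r of 0.37 to 0.78 with the 6, and Aldh1a2 had r of -0.01 to 0.53 with the other 9 genes. The points share libraries, animals and depth, and the 6 were grouped after these values were seen, so the r are a description.

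This pattern rests on the uninjured B6 regions. Without all 3 of them, the 15 pairs had r from -0.33 to 0.77 (median 0.27, 8 libraries). Without B6 uninjured 1 alone the median was 0.64, and the r of the 6 with Tbx18 and Tcf21 had a median of 0.43 in place of -0.31. Without B6 uninjured 2 the medians were 0.68 and -0.63. Leaving out any other single library kept the median of the 15 pairs between 0.88 and 0.92. The r of Tbx18 with Tcf21, 0.62 with all libraries, was 0.36 without B6 uninjured 1 and 0.21 without B6 uninjured 3. Without any other single library it was 0.58 to 0.77, and without all 3 uninjured B6 regions it was -0.02.

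**Figure D4:**
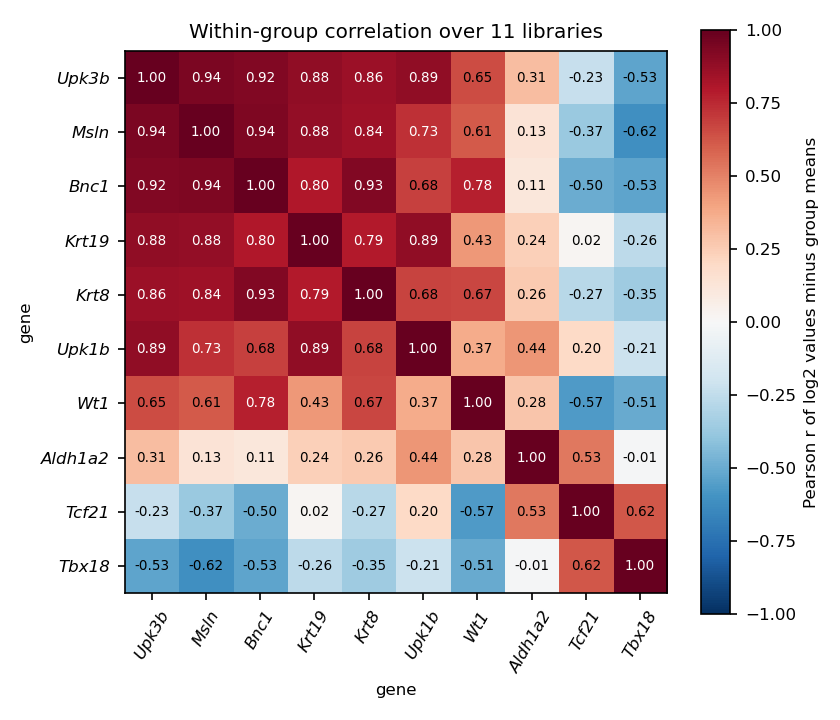
Pearson r between each pair of the 10 genes over 11 libraries, from log2 normalised counts with the mean of the group taken away; red is positive and blue negative. The 6 genes at the upper left have r of 0.68 to 0.94 with each other, and Tcf21 and Tbx18 at the lower right have r = 0.62.

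A wider list of 18 mesothelial genes, of which 16 were tested, was read in the same way. Of these, 8 of 16 (50%) had r above 0.5 with Upk3b, where 1301 of 14750 genes (8.82%) did. Without B6 uninjured 1 the counts were 10 of 16 and 19.1%, without B6 uninjured 2 they were 4 of 16 and 20.2%, and without the 3 uninjured B6 regions they were 8 of 16 and 22.9%. Krt14 (r = 0.93), Krt7 (0.92) and Krt18 (0.85), further epithelial keratins, and Lrrn4 (0.91), a membrane protein of mesothelium, were closest. Krt14 was low, at 1.18 in B6 uninjured 1, which is 1 read, and at most 64.4 in any library. Lrrn4 read 15.4, 85.0 and 76.6 in the uninjured B6 regions and Krt7 13.0, 207 and 40.1, both lowest in region 1 and highest in region 2. The 8 fibroblast markers had a median r of -0.13 with Upk3b, and the 11 cardiomyocyte markers 0.17.

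Among genes with a mean normalised count of at least 50, those most like Upk3b over the 11 libraries were Ppm1a (r = 0.95), A230072C01Rik (0.95), Plekhb2 (0.94) and Dnaaf5 (0.94). Those most like Wt1 were Gm10336 (0.97), Lnp (0.95), Nfib (0.95) and Zfp280b (0.95). Their levels differed widely, from 27.6 to 95.4 for A230072C01Rik and from 2630 to 5238 for Nfib, a transcription factor.

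The wider mesothelial list held few calls. In B6, 15 of 16 differences were above 0 with a median of 0.64, and 0 passed. The smallest p was that of Gata5, a GATA factor of the epicardium, at 4.71 to 7.10 in uninjured and 18.9 to 24.4 in injured regions (1.72, SE 0.42, adjusted p = 0.364 by limma). In C3H, 4 of 16 were above 0 with a median of -0.35, and 2 of 16 passed, both upward, where 30.7% of all genes passed. Pdpn, the membrane glycoprotein podoplanin of mesothelium, lymphatic vessels and activated fibroblasts, was at 245 to 343 in uninjured and rose to 1796 and 1825 in injured regions (2.58, SE 0.33, adjusted p = 2.97e-04 by limma). Ildr2 was at 84.8 to 223 in uninjured and rose to 371 and 422 in injured regions (1.62, SE 0.37, adjusted p = 0.00697 by limma). Pdpn also passed the test of the difference between strains' effects (2.02, adjusted p = 0.0460 by limma), and in uninjured regions Gata5 was higher in C3H (2.07, adjusted p = 0.0191 by limma).

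Retinoid handling genes surround Aldh1a2 in its pathway. Of 17 listed, 15 were tested. In B6, 0 passed, and Rxrg, a retinoid X receptor, had the smallest p (-0.65, SE 0.21, adjusted p = 0.364 by limma). In C3H, 4 of 15 rose and 3 fell, where 30.7% of all genes passed in either direction. Crabp2, which carries retinoic acid to the nucleus, was at 0.888 to 26.7 in uninjured and rose to 83.4 and 267 in injured regions (4.99, SE 1.06, adjusted p = 0.00465 by limma). Stra6, the cell surface receptor for retinol binding protein, was at 0 to 21.8 in uninjured and 57.2 and 77.8 in injured regions (adjusted p = 0.0198 by limma). Cyp26a1, which breaks retinoic acid down, was at 0.888 to 1.98, about 1 or 2 reads, in uninjured and 6.36 and 53.6 in injured regions (adjusted p = 0.0182 by limma). Dhrs3 was the fourth gene that rose, and Rxrg, Rarb and Rxrb, nuclear receptors for retinoids, fell. The list's median was 0.29 in B6 and 0.48 in C3H, against 0.01 over all genes in each.

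Of 11 genes of the transition from epithelial to mesenchymal form, 0 passed in B6, where Snai1, a repressor of Cdh1, had the smallest p (0.96, SE 0.31, adjusted p = 0.364 by limma). In C3H, 5 of 11 rose and 1 fell, where 30.7% of all genes passed in either direction. Vim, the mesenchymal filament protein vimentin, was at 6541 to 13054 in uninjured and rose to 39512 and 59320 in injured regions (2.26, SE 0.40, adjusted p = 0.00185 by limma). Zeb2, a repressor of epithelial genes, was at 679 to 1276 in uninjured and rose to 3115 and 4579 in injured regions (2.05, SE 0.31, adjusted p = 8.04e-04 by limma). Snai1 and Twist1 rose as well, and Cdh2, the cadherin of heart muscle, fell. Cdh1, the epithelial cadherin that is lost in that transition, rose too and was at 0 to 2.97 in uninjured and 38.9 and 66.4 in injured C3H regions (adjusted p = 8.57e-04 by limma). 

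The list of epicardial signals and their receptors held 19 genes, all tested. In B6, 0 passed, and Ctgf, a matrix-associated target of TGF-beta and YAP, had the smallest p (1.09, SE 0.31, adjusted p = 0.364 by limma). In C3H, 6 of 19 rose and 3 fell, where 30.7% of all genes passed in either direction. Fgfr2, a fibroblast growth factor receptor, was at 14.2 to 24.1 in uninjured and rose to 45.2 and 120 in injured regions (1.84, SE 0.48, adjusted p = 0.0130 by limma). Tgfb3, a TGF-beta ligand, was at 321 to 1057 in uninjured and rose to 1409 and 3234 in injured regions (1.82, SE 0.51, adjusted p = 0.0189 by limma). Fgf16, a growth factor of heart muscle, was at 98.4 to 407 in uninjured and 41.7 and 123 in injured regions, with overlap, and fell by 1.79 (SE 0.60, adjusted p = 0.0410 by limma). Fgfr1, Pdgfrb, Tgfb1 and Ctgf were the others that rose, and Fgf9 and Yap1 the others that fell. In the same regions 8 of 11 cardiomyocyte markers fell and 6 of 8 macrophage markers rose, and their part was not tested.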

How the data were processed

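RNA from uninjured and injured heart regions was extracted with a column kit and sequenced from standard Illumina libraries, per the labels' protocols. The deposited table holds a normalised signal per gene: gene read counts divided by 1 size factor per library. Per the submitters' processing notes, TopHat2 2.0.11, HTSeq 0.6.1, DESeq and mm9 were used. The sources used here name no annotation, strand setting or filter. In each library 100% of deposited values were whole multiples of the smallest step (tolerance 1e-06), which gave back reads for edgeR 4.0.16 and DESeq2 1.42.0; in C3H uninjured 1, whose step of 0.990 lies near 1, this rests on that step alone.

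Values were taken as log2(normalised count + 1). A pseudocount understates the change of low genes. limma 3.58.1 (R 4.3.3, trend) was fitted on 4 group means over all 11 libraries, for the 14751 genes with at least 10 in 2 libraries (523 not tested), with Benjamini-Hochberg adjustment over all of them, a threshold of 0.05 and 7 residual degrees of freedom. Unless another tool is named, p-values are limma's. The fit was tested on simulated data first. The same number within a strain marks regions of 1 mouse, per the labels; residuals of the 2 regions correlated at 0.276, -0.0140 and 0.524 in B6 and 0.305 and 0.575 in C3H. The animal was therefore tried as a fixed and as a random block. Other alternatives were pseudocounts of 0.5 and 5, filters, quantile and TMM scaling, a fit on the compared groups only, edgeR, DESeq2, and leaving out each library. The correlations without libraries and DESeq2 without independent filtering were added after the data were seen.

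The 10 genes and all lists were chosen with earlier results of these data known. Named were all 10 genes, the most abundant marker of each list, and the 4 genes outside the 10 most like Upk3b and Wt1. From each pathway list at most 3 called genes per injury comparison were named by size of change (otherwise the one with the smallest p). Other called list genes were named after their values were seen. Exon lengths came from a GRCm38 annotation and serve as a scale only.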

Additional observations from a re-analysis of the deposited data

Results flagged for a closer look

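The injury difference of Upk3b went opposite ways in the 2 strains: the injured region was higher in 3 of 3 B6 hearts and lower in 2 of 2 C3H hearts. The test of that difference without regard to the animal gave -1.896 log2 units (SE 0.8772, C3H minus B6), with an adjusted p of 0.3585 by limma, so it did not pass. With the animal as a fixed block it was -1.71 (unadjusted p = 0.0281, adjusted p = 0.213 by limma). With a random block it was -1.82 (unadjusted p = 0.0266, adjusted p = 0.169 by limma). Neither passed. Without a block it ranged from -2.62 to -1.03 over the fits that left out 1 library. In C3H the 2 hearts differed by -0.21 and -0.03, close to 0. Groups of 2 or 3 libraries are too small for a rule on outlying libraries.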

How the results depend on the processing

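Of 1105 differences of the 10 genes under the alternatives, 1046 kept direction and side of the threshold, 50 changed sign and 9 passed where the main fit did not. The number of the 10 genes called was 0 in every setting but these, the cause of which was not tested: for injury in C3H it was 1 with the fixed replicate block (Aldh1a2) and 1 in the fit on the 2 groups (Msln), for strain in uninjured regions 1 with DESeq2 (Wt1), with or without independent filtering, and for strain in injured regions 1 in the fit on the 2 groups (Tcf21). Over the fits that left out 1 library it was 0 to 1 for injury in C3H, 0 to 1 for the strain difference of the injury effect, 0 to 2 for strain in uninjured regions and 0 in the others, each call coming without B6 uninjured 2. DESeq2 with independent filtering gave no adjusted p to the 10 genes for injury in B6, so DESeq2 without it was added after the data were seen. The replicate block changed no other call of the 10 genes, and the fixed block gives no strain comparison.

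Signs changed as follows. For injury in B6, Krt8 was -0.0451 and Krt19 -0.0444 in edgeR, and -0.1177 and -0.1197 in DESeq2. For injury in C3H, Upk1b was 0.1015 with the fixed block, and Wt1 -0.0586 and Krt8 -0.1004 with quantile normalisation. For the strain difference of the injury effect, Aldh1a2 was 0.3025 (fixed block) and 0.0701 (random block), Bnc1 0.1287 (edgeR) and 0.2247 (DESeq2), and Krt8 0.3650 (edgeR) and 0.4401 (DESeq2). For strain, Krt8 was 0.0409 with quantile normalisation in uninjured and Upk3b 0.0600 with the random block in injured regions.

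Leaving out 1 library at a time gave, for injury in B6, -0.1524 to 2.2514 for Bnc1, -0.278 to 2.1404 for Msln, -0.4306 to 1.1815 for Krt8 and -0.1641 to 1.3221 for Krt19, the low ends without B6 uninjured 1. For injury in C3H it gave -0.4144 to 0.1015 for Upk1b and -0.2894 to 0.873 for Krt8. For the strain difference of the injury effect it gave -1.6098 to 0.794 for Bnc1, -0.8897 to 0.7224 for Krt8 and -0.815 to 0.6559 for Aldh1a2. For strain in uninjured regions it gave -0.4677 to 0.2401 for Tcf21, -0.0676 to 2.3362 for Bnc1, -0.2078 to 0.8255 for Upk1b and -0.9123 to 0.6998 for Krt8. In injured regions it gave -0.5077 to 0.2169 for Msln, -0.1827 to 0.0979 for Tbx18, -0.2143 to 0.1915 for Upk3b and -0.7711 to 0.3912 for Krt8.

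Over all genes, calls for injury in B6 were 2, against 20 and 16 with the fixed and random block and, in DESeq2, 4 of 1023 genes with an adjusted p and 45 without independent filtering. For injury in C3H they were 4527, against 5151 and 6166 with the fixed and random block, 3748 (the 2 groups alone) and 5259 (DESeq2). For the strain difference of the injury effect they were 231, against 491 and 777 with the fixed and random block and, in DESeq2, 722 (715 without independent filtering). For strain they were 458 against 191 (the 2 groups alone) and 916 (DESeq2) in uninjured, and 1042 against 1562 (the 2 groups alone) and 2014 (DESeq2) in injured regions. Without 1 library the counts ran from 1 to 6 for injury in B6, 1708 to 5017 for injury in C3H (4527 with all libraries), 10 to 272 for the strain difference, and 213 to 788 and 101 to 1322 for strain in uninjured and injured regions, with the lows of 1708, 10 and 101 without C3H injured 2; without C3H injured 1, injury in C3H gave 2801. A lone C3H injured library is then assumed to vary like the other groups. Bnc1 rests on 1 to 73 reads per library, and each group holds 2 or 3 animals, which limits the precision.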
